A study of Rattus norvegicus with 6 samples.

Results

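Mast cell proteases, the high-affinity IgE receptor and the enzyme that makes histamine were examined in the colon of rats that had received azoxymethane (AOM), a chemical that induces colon tumors. The set held 9 genes, namely Mcpt1, Mcpt2, Cma1, Tpsb2, Tpsab1, Cpa3, Fcer1a, Ms4a2 and Hdc, out of 15162 genes that the array could be matched to. Their probes were found by matching the transcript accession of every probe that is not a control to the rat genes. A probe was found for 8 of the 9 genes, with 2 probes for Fcer1a and 1 for each of the others, 9 probes in all. No probe matched Mcpt2, so it has no value here.

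The study compared 2 strains with 3 rats each, S.LEW congenic (C1 to C3) and S (S1 to S3). S is the Dahl salt-sensitive rat (SS/Jr), and the S.LEW congenic strain is an S rat that carries a small piece of genome from the Lewis (LEW) rat. All 6 were males on a low salt diet (0.3% NaCl) and got AOM in the abdomen in 2 weekly injections of 15 mg/kg body weight, the first at the age of 6 weeks. Colons were taken at 30 weeks, and 1 single-color array was hybridized per rat. There was no rat without AOM, so the comparison is of 2 strains after the same treatment, and the congenic group stands for 1 congenic line. The labels describe the tissue as colon with induced tumors and do not say how much of each piece was tumor.

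Mast cells are tissue-resident immune cells that store proteases, histamine and heparin or related proteoglycans in granules and release them when IgE on their surface meets its antigen. The receptor for IgE has an alpha chain that binds the antibody (Fcer1a), a beta chain that amplifies the signal (Ms4a2) and a gamma chain that other immune receptors share. In rodents the cells are often divided by their proteases into a mucosal type, which lies in the epithelium and lamina propria and stores chymases, and a connective tissue type, which lies around vessels and in the submucosa and also stores tryptase and carboxypeptidase A. Here Mcpt1 and Mcpt2 were taken as mucosal and Cma1, Tpsb2 and Cpa3 as connective tissue type. In the rat the older literature gives the name RMCP-I to a connective tissue enzyme and RMCP-II to the mucosal one, and the gene table used here lists both names as synonyms of Mcpt1. The Mcpt1 probe therefore cannot be assigned to one type by its name.

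GATA factors, among them GATA2, are known regulators of mast cell genes, so the stretch of 250 bases before the start of each gene was searched on both strands for the hexamers AGATAA together with AGATAG, as well as TGATAA together with TGATAG. RefSeq sequences (GRCr8) were in hand for 7 of the 9 genes, and 4 of them held at least 1 hexamer, Mcpt1, Cma1, Cpa3 and Fcer1a. Of all 33469 promoters of that length, 27.0% held one. The 3 proteases with a match are shown, 5′ to 3′ on the strand of the gene, with the hexamers in capitals. They lie at chr15:33841356-33841605 (plus strand) for Mcpt1, chr15:33390134-33390383 (minus strand) for Cma1 and chr2:104673238-104673487 (minus strand) for Cpa3.
Mcpt1: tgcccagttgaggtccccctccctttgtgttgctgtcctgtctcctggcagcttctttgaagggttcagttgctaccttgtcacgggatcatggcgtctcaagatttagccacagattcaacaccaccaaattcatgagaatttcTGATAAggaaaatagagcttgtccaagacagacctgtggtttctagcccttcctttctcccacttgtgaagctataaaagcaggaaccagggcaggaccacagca
Cma1: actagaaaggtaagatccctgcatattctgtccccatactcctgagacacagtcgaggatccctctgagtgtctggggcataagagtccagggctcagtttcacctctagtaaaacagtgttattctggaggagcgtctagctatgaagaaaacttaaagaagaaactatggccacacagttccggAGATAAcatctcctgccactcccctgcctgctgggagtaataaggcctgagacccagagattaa
Cpa3: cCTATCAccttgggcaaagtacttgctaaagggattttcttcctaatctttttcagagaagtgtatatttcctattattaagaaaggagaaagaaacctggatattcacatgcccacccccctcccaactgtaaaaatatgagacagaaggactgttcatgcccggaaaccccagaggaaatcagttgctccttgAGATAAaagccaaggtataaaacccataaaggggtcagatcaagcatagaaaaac
Cma1 and Cpa3 each held AGATAA close to the start, with 58 and 49 bases after it. Cpa3 had a second match at its far end that reads TGATAG on the other strand, and the single match of Mcpt1 was TGATAA, 99 bases from the start. A match describes the letters only, and nothing was measured at these promoters.

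Values are log2 normalized signals, which place the same probe of different arrays on one scale but do not allow one probe to be set against another. A probe was called lower or higher where the unadjusted p of limma was under 0.05 and the change at least 2-fold, and adjusted p-values (Benjamini-Hochberg) run over all 23971 probes that were well above background on at least 3 of 6 arrays. Of these, 563 were lower and 775 higher in the congenic rats (760 and 692 when arrays were scaled to their 75th percentile in place of quantile normalization), and 0 had an adjusted p under 0.05, the smallest being 0.101, while 3108 (13%) had an unadjusted p under 0.05. The count of 0 depended on single arrays, since it was 5562 without S2 and 41 without S1, and 0 without any one of the other 4. One S array stood apart from the others of its strain: over all tested probes S2 correlated with the congenic arrays at 0.967 to 0.976, but with S1 at 0.90 and with S3 at 0.936. C1 was scanned together with the 3 S arrays and C2 and C3 in another scan, so results are also given within the first scan. A fit with the scan as a block takes its strain difference from the first scan alone, that is from 1 congenic rat, C1, against the 3 S rats, so its value equals C1 minus the mean of the S rats and C2 and C3 add to the error only. The S arrays had more spots well above background (83.2 to 87.6%) than the congenic arrays (73.8 to 80.9%), and the lowest signal that counted as well above background was higher in the congenic rats (4.50 to 5.63) than in the S rats (3.41 to 4.13). A dim gene could thus be told from background on the S arrays at levels where it could not on the congenic ones.

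Of the 8 genes with a probe, 7 had a higher mean signal in the S rats and 1, Tpsb2, in the congenic rats. The alpha chymase Cma1, the carboxypeptidase Cpa3 and the beta chain Ms4a2 were called lower in the congenic rats, and no gene was called higher. These 3 are of 7 tested genes, against 2.35% of all tested probes called lower and 3.23% called higher. All 3 were tested only through the S arrays, and of the 510 probes tested in that way 22.7% were called lower. The same 7 genes gave 3 calls without S2 (7.2% of probes) and 1 call, Ms4a2, with the scan as a block (0.939% of probes). None had an adjusted p under 0.05 (limma). Of the 8 genes, 6 were well above background on every S array and 5 on no congenic array. Mcpt1, the member that passed the background on all 6 arrays, did not differ between strains beyond the spread of the rats. The median difference of the 8 genes, congenic minus S, was -0.91 on the log2 scale, beside 0.02 for all 30367 probes of the array.

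**Figure D1:**
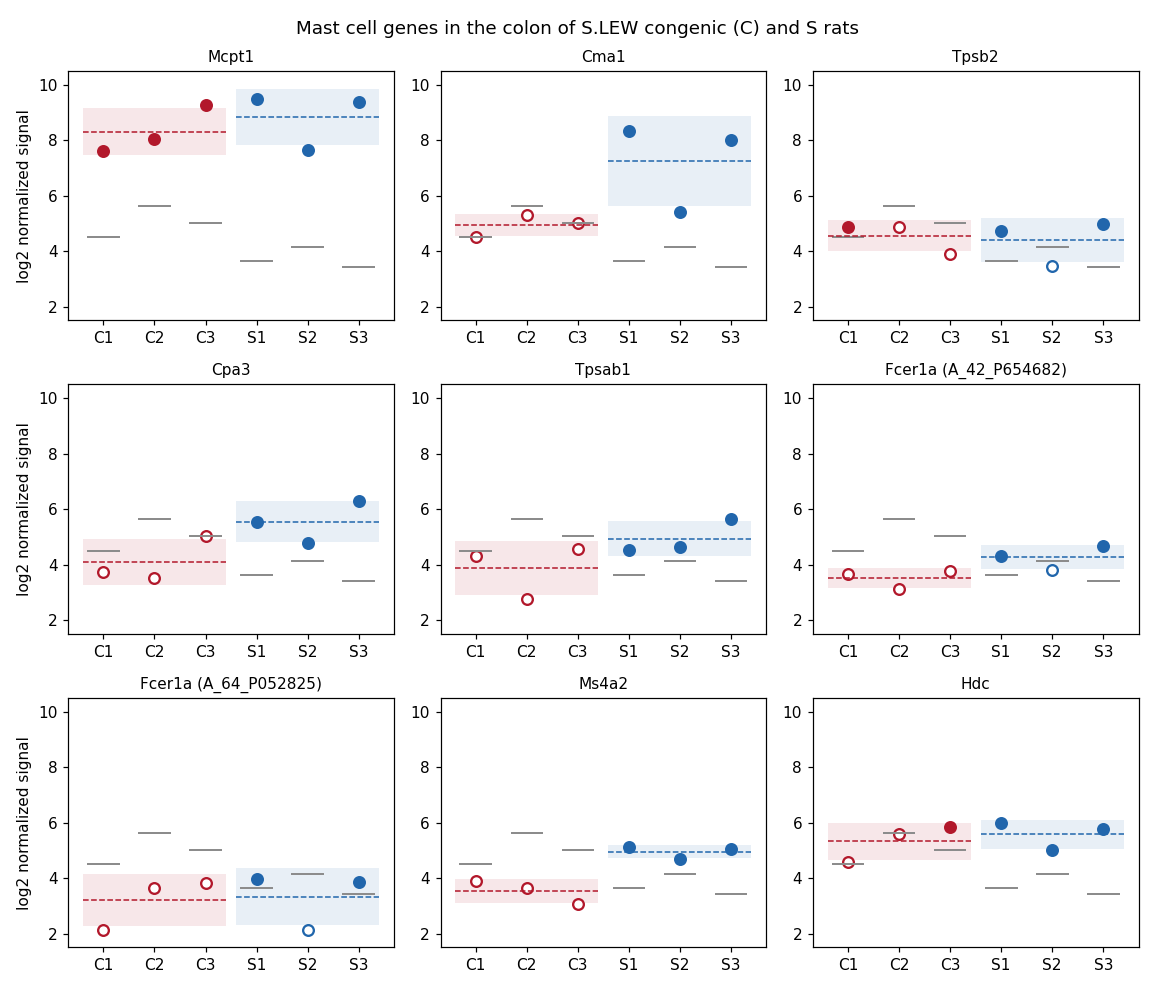
Log2 normalized signal (y axis) of the 9 mast cell probes on each of the 6 arrays (x axis), congenic rats in red and S rats in blue. Filled points were well above background and open ones were not, gray ticks mark the lowest signal well above background on that array, and dashed lines with shading are the strain mean and 1 SD. Cma1 was filled for each S rat and open for each congenic rat, while Mcpt1 was filled on all 6.

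Mcpt1 encodes a chymase, a serine protease of the granule. Its signal was 7.62, 8.05 and 9.25 in C1, C2 and C3 and 9.48, 7.66 and 9.37 in S1, S2 and S3. It was well above background on all 6 arrays. C3 lay with S1 and S3, S2 lay with C1 and C2, and the strains overlapped. The means were 8.31 ± 0.84 and 8.83 ± 1.02 (SD, n = 3 each), a difference of -0.53 with a standard error of 0.62 (limma, adjusted p = 0.688). Within the first scan, C1 minus the mean of the S rats was -1.21. Without S2 the difference was -1.12 and still not called.

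Cma1 encodes alpha chymase, a serine protease of the granule. Its signal was 4.52, 5.31 and 5.01 in the congenic rats and 8.34, 5.40 and 8.00 in the S rats. S1 and S3 were far above the rest, and S2 exceeded the highest congenic rat, C2, by only 0.09. The 3 S arrays had the probe well above background and the congenic arrays did not, so only a bound on the change is given. With this background and normalization the mean of the S rats was at least 4.56-fold higher. This bound sets the mean of the S rats against the mean, over the congenic arrays, of the higher of the probe's own signal and the lowest signal well above background. After a normexp background correction the difference was -1.30, still called but a smaller change than the bound. The measured means were 4.94 ± 0.40 and 7.25 ± 1.61 (SD), a difference of -2.30 with a standard error of 0.77 (limma, adjusted p = 0.340). An exact permutation test over the 6 rats gave p = 0.10 (two-sided), the smallest that 3 against 3 rats can give.

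The size of the Cma1 difference rested on S1 and S3. Without S2 the bound rose to 8.65-fold, without S1 it was 3.12-fold and without S3 3.51-fold. The call of Cma1 was kept without C2 and without S2 and was lost without C1 (-2.09), C3 (-2.33), S1 (-1.75) or S3 (-1.92). With the scan as a block the difference was -2.73 and no longer passed the threshold (unadjusted p of limma 0.0639).

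Tpsb2 and Tpsab1 encode tryptases, trypsin-like proteases that are held on heparin in the granule. Tpsb2 gave 4.88, 4.87 and 3.90 in the congenic rats and 4.72, 3.48 and 4.96 in the S rats. It was well above background on 1 congenic and 2 S arrays, and the strains overlapped. Its difference was 0.16 with a standard error of 0.47 (limma, adjusted p = 0.877), and its sign changed with the scaling of the arrays.

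Tpsab1 gave 4.30, 2.75 and 4.55 in the congenic rats and 4.52, 4.64 and 5.65 in the S rats. S3 was highest and C2 lowest, and the ranges overlapped by 0.02, between C3 and S1. It passed the background on each S array but never in a congenic rat, and the S levels reached into the range where the congenic arrays could not tell signal from background, so no fold is given. The difference was -1.07 with a standard error of 0.55 (limma, adjusted p = 0.432). The sequences of the probes were not used here, so signal shared between these closely related tryptases cannot be told apart.

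Cpa3 encodes carboxypeptidase A3, which trims peptides from their C-terminal end and is stored with chymase. Its signal was 3.74, 3.51 and 5.04 in the congenic rats and 5.55, 4.79 and 6.28 in the S rats. S1 and S3 were above every congenic rat, while S2 lay below C3. Only the S arrays had it well above background, and with this background and normalization the S rats were at least 1.39-fold higher. S2 itself lay below the lowest signal that counted on C2 (5.63) and on C3 (5.02). After a normexp background correction the difference was -0.41, a smaller change than the bound and not called. The measured difference was -1.44 with a standard error of 0.53 (limma, adjusted p = 0.358). Cpa3 was still called without S2 (-1.82) and without C3 (-1.92), and the call was lost without C1 (-1.26), C2 (-1.15), S1 (-1.44) or S3 (-1.07). With the scan as a block it was -1.80 and not called.

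Ms4a2, the beta chain of the IgE receptor, gave 3.91, 3.66 and 3.07 in the congenic rats and 5.13, 4.68 and 5.06 in the S rats. All S rats, S2 included, were above all congenic rats, with a gap of 0.77 between S2 and C1. The means were 3.55 ± 0.43 and 4.95 ± 0.24 (SD), a difference of -1.41 with a standard error of 0.27 (limma, adjusted p = 0.216). The call held without each of the 6 arrays in turn, with differences of -1.17 to -1.59, and C1 alone against the S rats, in the fit with the scan as a block, gave -1.05. No fold is given, since no congenic array had the probe well above background and the S levels lay between the lowest signals that counted on the congenic arrays. After a normexp background correction the difference was -0.39 and not called.

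Fcer1a, the alpha chain, was too dim to be tested. Its probe with 10 spots gave 3.65, 3.11 and 3.78 in the congenic rats and 4.31, 3.82 and 4.67 in the S rats. It was well above background on 2 S arrays, S1 and S3, and on no congenic array, and S2 exceeded C3 by 0.04. In the authors' log2 table, which holds this probe, the difference was -0.85 and not 2-fold. The other Fcer1a probe gave 2.13, 3.65 and 3.82 against 3.96, 2.13 and 3.88, so the strains overlapped and both C1 and S2 were low. Fcer1g, the shared gamma chain, was well above background on all arrays and differed by -0.22 with a standard error of 0.33 (limma, adjusted p = 0.755).

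Hdc encodes histidine decarboxylase, which makes histamine. Its signal was 4.56, 5.59 and 5.83 in the congenic rats and 5.98, 4.99 and 5.78 in the S rats. It was well above background on 1 congenic and 3 S arrays. The strains overlapped, with C1 lowest and S1 highest. The difference was -0.26 with a standard error of 0.42 (limma, adjusted p = 0.772), and it was 0.12 without C1 and -1.02 within the first scan.

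The 4 genes that were tested only through the S arrays, Cma1, Cpa3, Tpsab1 and Ms4a2, had to be brighter in the S rats to be tested at all, and 3 of the 4 were called. Of the 510 tested probes of the whole array that were likewise well above background on every S array and on no congenic array (2.13% of those tested), 22.7% were called lower. Cma1 and Ms4a2 were the tested members in which every S rat exceeded every congenic rat, which 5.31% of tested probes did. In bulk colon, fewer mast cells and less RNA of these genes per cell cannot be told apart.

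The S rats also differed among themselves. S3 was above S2 in all 8 genes and S1 above S2 in 7, the exception being Tpsab1. Before normalization between arrays, the median spot intensity was 594 in S1 and 445 in S3. It was 219 in S2 and 214 to 291 in the congenic rats. S1 and S3 were thus also the brightest arrays, and the part of array brightness in these differences was not tested. S1 and S3 together exceeded every congenic rat in 5 genes, and S2 exceeded every congenic rat in 4. S2 was below all congenic rats for 1 gene, Tpsb2. Across the 6 arrays the 28 pairs of members correlated from -0.13 to 0.94 with a median r of 0.56, and 6 pairs were over 0.8, led by Cpa3 with Fcer1a. These correlations describe 6 arrays that share strain and scan and carry no test.

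The genes whose pattern over the 6 arrays was most like Mcpt1 were Gbp5, Wnt2b and Ccdc97, with Pearson r of 0.989, 0.989 and 0.986 over 12381 genes compared. For the mean of Cma1, Tpsb2 and Cpa3 they were Cp, Ptpn22 and Sp4, with r of 0.999, 0.998 and 0.997. Ptpn22, a phosphatase of lymphocytes, gave 6.39, 6.86 and 6.98 in the congenic rats and 11.6, 6.92 and 11.7 in the S rats. Cp, Ptpn22 and Sp4 shared a high level in S1 and S3 against the other 4 rats. The genes most like Mcpt1 were high in C3 as well, as in Ccdc97 (9.53, beside 9.55 in S1 and 9.52 in S3). Cma1 and Cpa3 correlated at 0.80, but Tpsb2 correlated with them at 0.36 and -0.05. The connective tissue type mean is thus not a pattern common to its 3 genes. Of the 12381 genes, 1525 had an r over 0.9 with this mean, against 214 for Mcpt1.

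Genes that act with the members were examined in 5 lists. Of 9 tested genes for other granule proteases 0 were called in either direction (limma), and 1, Tpsg1, had an unadjusted p under 0.05. They included Mcpt8 (0.08) and Prss34 (0.42), which are also in the list of basophil markers used here. Mcpt9 (0.06) and Mcpt10 (0.15) were, like Mcpt1, well above background on all arrays. Mcpt8, Mcpt9 and Mcpt10 were each highest in S1 and lowest in S2. Tpsg1, a membrane-anchored tryptase, did not overlap between strains and was higher in the congenic rats, as were 12.4% of tested probes, with a difference of 0.74 that did not reach 2-fold. The median of the list was 0.08. Mcpt3, Mcpt4 and Mcpt8l2 had a probe but were too dim to be tested.

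**Figure D2:**
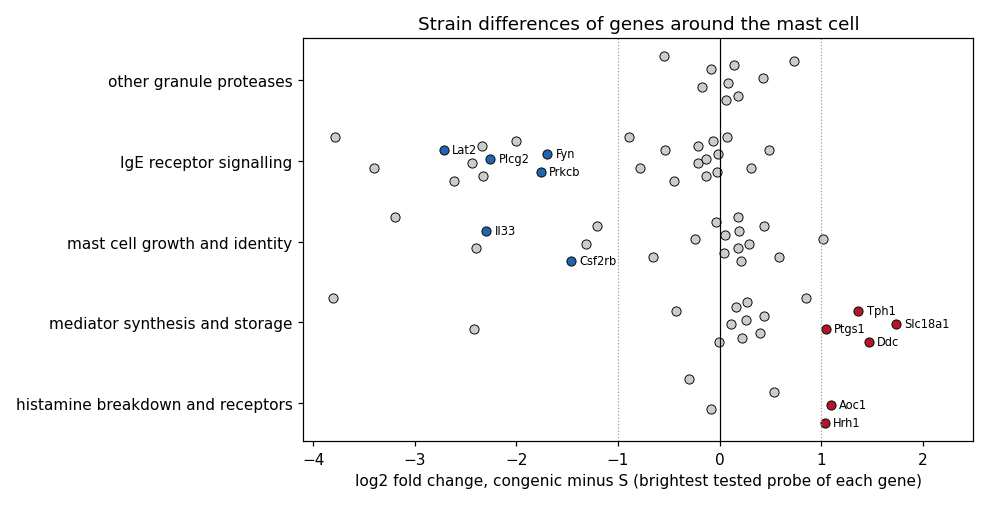
Log2 fold change, congenic minus S (x axis), of each tested gene in the 5 lists (rows), with genes called lower in blue, higher in red and the others in gray. Dotted lines mark 2-fold. The 6 genes called lower were in the lists of IgE receptor signalling and growth, the 6 called higher in those of mediator synthesis and histamine.

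Downstream of the IgE receptor, 4 of 25 tested genes were called lower and 0 higher, beside 2.63% of genes called lower over the array, and 22 of the 25 differences were below 0. Prkcb, a protein kinase C that acts in degranulation, gave 9.59, 9.80 and 10.6 in the congenic rats and 12.2, 11.4 and 11.7 in the S rats. All S rats were above all congenic rats, as in 5.31% of tested probes. The difference was -1.76 with a standard error of 0.34 (limma, adjusted p = 0.210). It was called without each array in turn, and C1 alone against the S rats gave -2.16.

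The other calls downstream of the receptor rested on S1 and S3. The adaptor Lat2 gave 5.77, 5.87 and 4.54 in the congenic rats and 9.88, 5.65 and 8.80 in the S rats, with S2 among the congenic rats. It differed by -2.72 with a standard error of 1.07 (limma, adjusted p = 0.377). Plcg2, a phospholipase, differed by -2.26 and the kinase Fyn by -1.70. Lat2 and Fyn were called in 1 of 6 and Plcg2 in 2 of 6 fits that left out 1 array, and none of the 3 with the scan as a block. The kinase Syk differed by -2.0 and the adaptor Lat by -3.40 with S2 close to or below the lowest congenic rat, and neither was called by its brightest probe. A dimmer probe of Syk was called lower (-2.51, at least 2.82-fold), as was one of the phosphatase Inpp5d (-2.26). These kinases and adaptors also serve T and B cells, whose markers moved on the same arrays.

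Among 19 tested genes of mast cell growth and identity, 2 were called lower and 0 higher, beside 2.63% and 3.79% of genes over the array. Il33, an alarmin released by epithelial and stromal cells that activates mast cells, gave 9.85, 9.41 and 9.56 in the congenic rats and 11.6, 12.4 and 11.7 in the S rats. S2 was here the highest of all, and every S rat was above every congenic rat, as for 5.31% of tested probes. The difference was -2.30 with a standard error of 0.28 (limma, adjusted p = 0.193), a level 4.91-fold higher in the S rats. It was -2.03 without S2 and -2.06 for C1 alone against the S rats, and it was called in all 6 fits that left out 1 array. Il1rl1, the receptor for IL-33, differed by 0.44 by its brightest probe and was not called. Its other probe differed by -1.09 but was too dim to be tested. That probe was well above background on 2 S arrays and on no congenic array.

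Csf2rb, the shared beta chain of the IL-3 receptor, differed by -1.46. Every S rat was above every congenic rat, as in 5.31% of tested probes, with S2 (6.04) close to C1 (5.99). The call was lost without C2 (-1.11), S1 (-1.15) or S3 (-1.26) and with the scan as a block (-1.09). Kit, the receptor for stem cell factor that mast cells need, gave 9.14, 8.89 and 9.94 in the congenic rats and 7.91, 9.15 and 7.85 in the S rats. Its difference was 1.02 with a standard error of 0.45 (limma, adjusted p = 0.393), which was not called. Its ligand Kitlg differed by 0.59 and the transcription factors Gata2 and Mitf by 0.21 and 0.18, none of them called. The dimmer probes of Mitf differed by 0.75 and 0.53 and were not called. Both had every congenic rat above every S rat, as did 12.4% of tested probes. Gata1, Il3 and Il9 were well above background on no array.

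**Figure D3:**
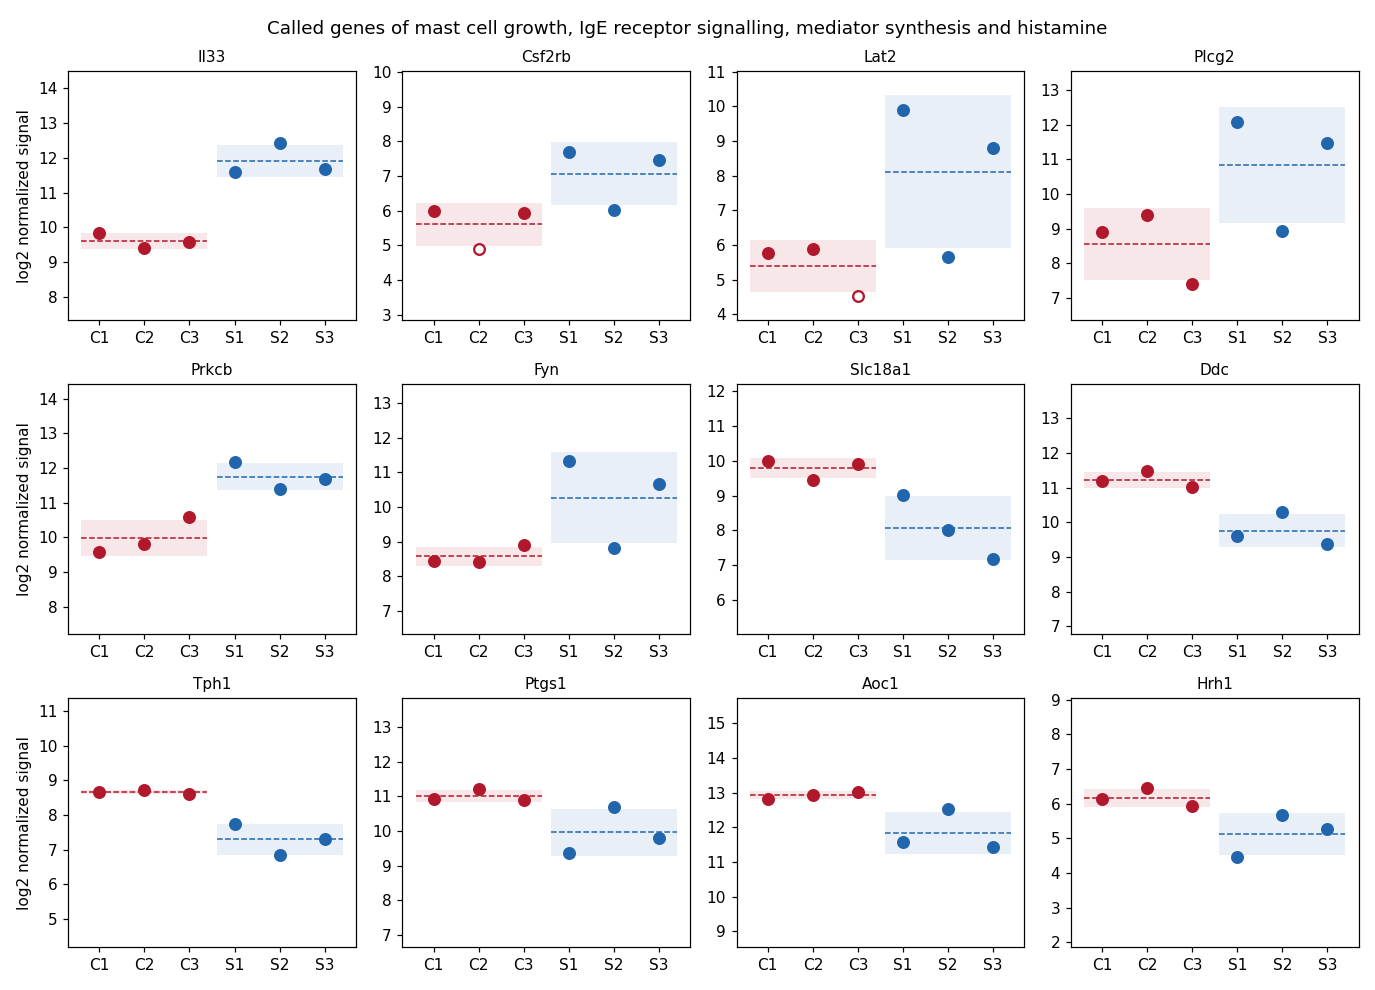
Log2 normalized signal (y axis, the same span in each panel) of the 12 called genes on each array (x axis), congenic rats in red and S rats in blue, open points not well above background, dashed lines with shading the strain mean and 1 SD. Il33, Prkcb, Tph1, Ddc and Slc18a1 separated the strains with S2 among the S rats, while Lat2, Plcg2 and Fyn had S2 near the congenic rats.

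Of 16 tested genes of mediator synthesis and storage, 4 were called higher in the congenic rats and 0 lower, beside 3.79% of genes called higher over the array. The median of the list was 0.27, and its largest difference was that of Hpgds, a prostaglandin D synthase, at -3.80 and not called, with S1 and S3 high and S2 below every congenic rat. Tph1, the enzyme that starts serotonin synthesis, gave 8.67, 8.71 and 8.61 in the congenic rats and 7.75, 6.84 and 7.30 in the S rats. It differed by 1.37 with a standard error of 0.26 (limma, adjusted p = 0.210). Ddc, which completes serotonin synthesis, differed by 1.47 and the amine transporter Slc18a1 by 1.74. These 3 were called without each array in turn, and C1 alone against the S rats gave 1.37, 1.44 and 1.95 for Tph1, Ddc and Slc18a1. Ptgs1, a prostaglandin synthase, differed by 1.05, and its call was lost without C1 (1.08), C2 (0.95), S1 (0.75) or S3 (0.97).

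Tph1 and Slc18a1 are also markers of enteroendocrine cells. Of 7 tested markers of those cells 5 were called higher, among them Gcg (2.01) and Chgb (1.60), beside 3.79% of genes over the array. The part of those cells in the difference was not tested. Slc18a2, the amine transporter that mast cells use, differed by 0.16 and Srgn, the core of the granule proteoglycan, by -2.42 with S2 below every congenic rat, and neither was called. In histamine breakdown and reception 2 of 5 tested genes were called higher, beside 3.79% of genes over the array. Aoc1, the diamine oxidase that degrades histamine in the gut, differed by 1.09 and the receptor Hrh1 by 1.04. In both every congenic rat was above every S rat, as in 12.4% of tested probes. The receptor Hrh3 was not called by its brightest probe (-0.30), while a dimmer probe was called lower (-1.19). In that probe every S rat was above every congenic rat, as in 5.31% of tested probes. With the scan as a block neither Aoc1 nor Hrh1 was called, and Hnmt, the other histamine-degrading enzyme, was well above background on no array.

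Markers of other immune cells moved on the same arrays as the mast cell genes. The mean level of the 8 members, each centred over the 6 arrays, was -0.60, -0.64 and -0.19 in C1, C2 and C3 and 0.76, -0.31 and 0.98 in S1, S2 and S3. The 3 tested T cell markers averaged -0.77, -1.10 and -1.37 in the congenic rats and 1.92, -0.64 and 1.96 in the S rats. Of them 3 of 3 were called lower, among them Cd5 (-3.08) and Cd3g (-2.31), beside 2.63% of genes over the array. Cd5 was called in 2 and Cd3g in 4 of the 6 fits that left out 1 array, the third marker Cd3d in 1, and none with the scan as a block. Both S1 and S3 stood above the other 4 rats, as they did for the members.

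For B cells the level was -1.95, -2.02 and -0.99 against 3.59, -1.65 and 3.01, with S2 among the congenic rats. Plasma cell markers ranged from -1.08 to -0.17 in the congenic rats and from -0.85 to 1.64 in the S rats. Of these 6 markers 3 were called lower, led by Pou2af1 (-3.80) and Mzb1 (-2.53), beside 2.63% of genes over the array. The calls were kept in 1 or 2 of the 6 fits that left out 1 array and in none with the scan as a block. Sdc1 (0.77) and Xbp1 (0.26) were instead above all S rats in each congenic rat, as were 12.4% of tested probes. Of the eosinophil markers Prg2 was tested and called lower (-1.47, in 2 of the 6 fits that left out 1 array and not with the scan as a block), and Epx, Prg3, Ccr3, Il5ra and Rnase2 were well above background on no array. The mean of 3 basophil markers stayed between -0.16 and 0.22 on all arrays with 0 of 3 called, while single markers varied more, Mcpt8 being highest in S1 (10.99) and lowest in S2 (9.77) and Prss34 the reverse (7.23 and 8.28). Whether Mcpt8 marks basophils in the rat was not tested, nor was the part of these immune cells in the differences of the mast cell genes.

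**Figure D4:**
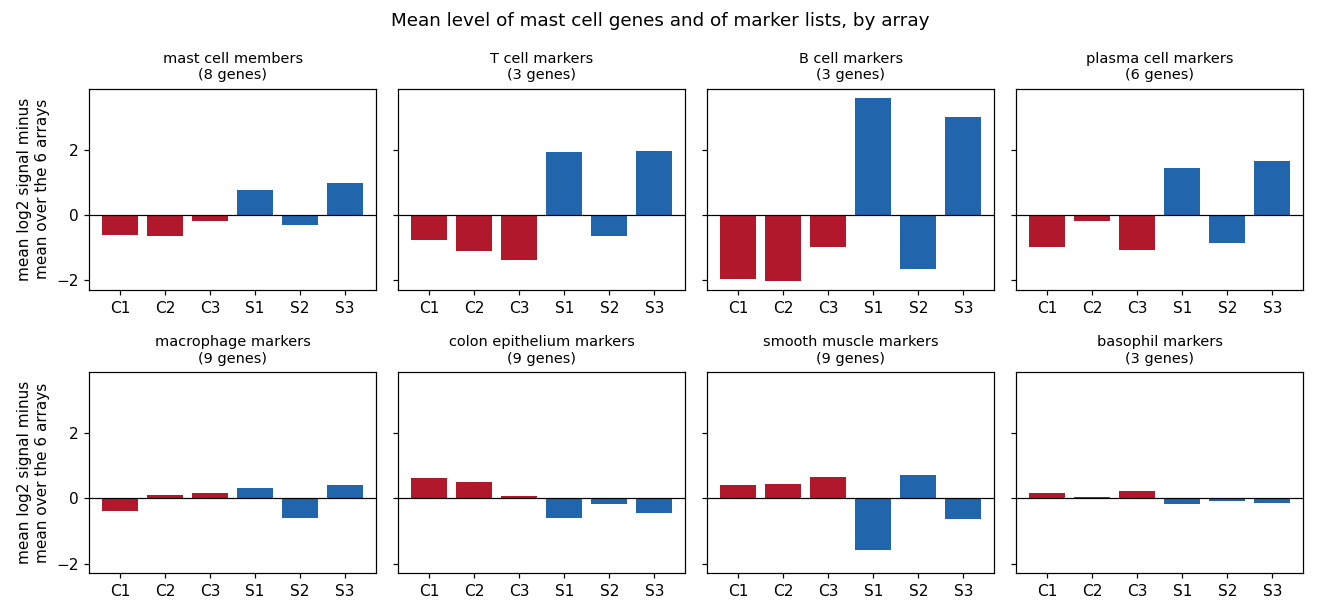
Mean log2 signal of the genes of each list minus their mean over the 6 arrays (y axis), by array (x axis), congenic rats in red and S rats in blue. The members and the T, B and plasma cell markers were high in S1 and S3 and lower in S2, whereas the mean of the basophil markers stayed between -0.16 and 0.22.

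Colon epithelium markers ranged from 0.09 to 0.62 in the congenic rats and from -0.61 to -0.16 in the S rats. Of these 9 markers 1 was called higher, Vil1 (1.01). Over the array 3.79% of genes were called higher and 2.63% lower. Smooth muscle markers were low in S1 (-1.57) and S3 (-0.65) and highest in S2 (0.72), with 1 of 9 called higher, Smtn (1.12). Markers of interstitial cells of Cajal, which also express Kit, had the same order among the S rats, with S1 at -1.03, S3 at -0.80 and S2 at 0.37, and 1 of 5 was called higher, Hand1 (1.74). Of 9 macrophage markers, which went both ways with 5 below 0, Cd163 (1.86) and Mrc1 (1.03) were called higher and Csf1r (-1.42) lower. None of them overlapped between strains. Over the array 12.4% of tested probes had every congenic rat above every S rat, and 5.31% the reverse. Another probe of Csf1r differed by -0.25, overlapped between strains and was not called. Serosa and fat markers ranged from -0.10 to 0.60 in the congenic rats and from -0.38 to -0.21 in the S rats, with 1 of 6 called higher, Adipoq (1.91), while Msln differed by -1.35 and was not called. With the scan as a block Cd163 was 1.01, Mrc1 0.50, Csf1r -1.45, Adipoq 0.98, Smtn 1.08 and Hand1 1.68, and none of these 6 was called. Csf1r and Smtn were each called in 1, Vil1 in 2 and Hand1 in 3 of the 6 fits that left out 1 array.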

How the data were processed

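Colon RNA of 3 S.LEW congenic and 3 S rats was hybridized to Agilent arrays, 1 color and 1 array for each rat. Per the labels the images were read with Feature Extraction 11.0.1.1, and the deposited scanner files give background-corrected intensities not yet normalized between arrays. The authors' deposited log2 table holds values quantile-normalized in GeneSpring, and it served as an alternative. Other deposited columns used are flags of 0 or 1 (well above background, outlier), which are neither intensities nor log2 values.

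From the scanner files, control and outlier-flagged spots were dropped, log2 intensities of the spots of a probe were averaged, and arrays were quantile-normalized. A probe counted as well above background where most of its kept spots did. The strain difference was fitted in R 4.3.3 by limma 3.58.1 (lmFit, eBayes, no covariates) after a test of the code on simulated data. Each array held 1 rat, and their number limits the precision. Alternatives were the scaling, background correction, filter, flagged spots, t-test, array weights, scan or replicate number as a block, and leaving out each array. The median over members was planned over tested genes (-1.07) and is given over all 8 with a probe, because a gene can be tested through its bright strain alone. One probe a gene, the brightest, entered the counts.

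Gene names came from the RefSeq table of GRCr8, through the accession of each probe (17997 of 30367 probes). The array was designed on another build, so positions are given for the RefSeq promoters alone. Named genes were all members, up to 4 called genes of each pathway list by size, up to 2 called genes of each marker list, and the 3 genes most like each class. Other genes named in the text (Fcer1g, Syk, Lat, Kit, Kitlg, Gata2, Mitf, Il1rl1, Slc18a2, Srgn, Hpgds, Hrh3, Inpp5d, Sdc1, Xbp1, Cd3d, Msln, dim genes and further proteases of the lists) were chosen after their values were seen. The calls of the B cell markers are not reported here. The members and lists were chosen with earlier results of these data known. Plots were drawn with matplotlib 3.10.9.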

Additional observations from a re-analysis of the deposited data

How the results depend on the processing

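The median difference of the 8 members stayed negative in every alternative that gave it, from -0.53 to -1.34 in all but normexp background correction, where it was -0.30. The count of members called lower (3) was 1 with normexp, 1 with the methods' t-test (0.718% of probes called lower) and 1 with the scan as a block. With the filter at all 6 arrays it was 0, and Mcpt1 was then the only member tested. With array weights it was 5. The default array weights of limma did not converge (weights 0.12 for S2 to 29.3 for S3), so gene-by-gene weights (0.16 to 4.89) were added after seeing the data and also gave 5. Leaving out 1 array gave 1 to 3. Genes of the 5 lists called lower (6) numbered 11 with 75th percentile scaling, 2 with the t-test, 22 with array weights, 21 with gene-by-gene weights and 2 with the scan as a block. Without S2 they numbered 21, the highest of 2 to 21 when leaving out 1 array. Those called higher (6) were 3 with the scan as a block. With a replicate block the members called lower were 4, and same-numbered rats did not pair, since their deviations from the strain means correlated at -0.13 to -0.02. Tpsb2 changed sign to -0.14 with 75th percentile scaling, -0.065 with normexp, -0.36 with array weights, -0.26 with gene-by-gene weights, -0.00073 without C1 and -0.29 without S2, in a range of -0.29 to 0.49 when leaving out 1 array. Hdc changed sign to 0.12 without C1, in a range of -0.56 to 0.12. Over all tested probes 563 were called lower, against 1725 without S2, 1643 with gene-by-gene weights, 225 with the scan as a block and 172 with the t-test. Probes with an adjusted p under 0.05 (0) numbered 1 with 75th percentile scaling, 5562 without S2, 41 without S1, 12481 with array weights and 8546 with gene-by-gene weights. The causes were not tested. Signal over background limits the dim members on the congenic arrays.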
